A study of Rattus norvegicus with 138 samples.

Results

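The glycine transporters and receptors studied here are the products of 7 genes out of 32883 in each table: the transporters Slc6a5 (ENSRNOG00000031662) and Slc6a9 (ENSRNOG00000019484), the receptor subunits Glra1 (ENSRNOG00000013588), Glra2 (ENSRNOG00000003313), Glra3 (ENSRNOG00000049792) and Glrb (ENSRNOG00000010199), and the scaffold gene Gphn (ENSRNOG00000028366). They were taken by symbol, from a list chosen with earlier results of these data known. Each symbol matched 1 row in the tables of all 3 regions. The series profiled RNA from bilateral punches of 3 medullary regions of female rats that control blood pressure: the nucleus of the solitary tract (NTS), the caudal ventrolateral medulla (CVLM) and the rostral ventrolateral medulla (RVLM). Spontaneously hypertensive rats (SHR/NHsd) were compared with normotensive Wistar-Kyoto rats (WKY/NHsd) of the same age, untreated, as hypertension developed. There were 5, 4, 3, 3 and 3 WKY rats and 5, 5, 6, 6 and 6 SHRs, in order of age, at 8, 10, 12, 16 and finally 24 wk, and each of the 46 rats gave 1 library per region. Both are inbred colonies of 1 supplier, so that each strain difference is that of 1 pair of colonies, and a punch takes up whatever cells lie in it.

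Glycine is, beside GABA, the main fast inhibitory transmitter of the medulla and spinal cord. Glycinergic neurons take it up through the transporter GlyT2 (Slc6a5) and load it into vesicles with the carrier that they share with GABA neurons (Slc32a1), whereas GlyT1 (Slc6a9), found mainly on astrocytes, clears it from the extracellular space. Its receptor is a chloride channel made of alpha subunits (Glra1, the main adult form; Glra2, the main fetal form; and Glra3) and the beta subunit (Glrb), through which gephyrin (Gphn) anchors receptors at synapses.

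The libraries held 5904581 to 17889417 counts each, with a median of 10143036.5. Levels are given as CPM, counts relative to library size with 1 scaling over all libraries, and no transcript lengths were at hand, so levels are compared between groups and not between genes. Of 21 combinations of a gene and a region, 20 passed the filter on low counts, and Glra3 in the RVLM did not. Cholinergic Chat, which marks motor neurons, averaged 62.1 CPM in the NTS, 18.1 (CVLM) and 241 (RVLM). Pnmt, which makes adrenaline, averaged 4.57, 42.9 and 23.9. The other noradrenergic and adrenergic markers were lowest in the RVLM. Th averaged 132, 134 and 54.6 CPM in NTS, CVLM and RVLM, and Dbh 67.5, 82.4 and 11.9. Slc6a2 averaged 8.62, 7.71 and 3.03, and Slc18a2 47.1, 61.7 and 19.9. The NTS neuron markers Tlx3 and Lmx1b were low, at 0.561 and 0.0478 CPM in the NTS, with Tlx3 at 0.115 in the CVLM and 0.0611 in the RVLM. Library names end in a number, 1 or 2, whose meaning the sources used here do not give. Number 2 marks all libraries at 10 wk and, outside that age, 5 of the libraries of each region: WKY replicates 3, 4 and 5 at 8 wk, SHR replicate 6 at 12 wk and SHR replicate 6 at 24 wk.

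Most of these genes differed between regions, as did most genes tested. Between regions, 17 of 21 differences passed the test, fitted over the libraries of all regions with each rat as a block (edgeR's quasi-likelihood test, adjusted p under 0.05). That was 6 of 7 genes for NTS against CVLM, 6 of 7 for NTS against RVLM and 5 of 7 for CVLM against RVLM, where 65.9%, 72.7% and 54% of all genes tested passed. Transcripts of the transporters and of Glra1 and Glrb were lower in the NTS than in both ventrolateral regions, those of Glra2 and Glra3 were higher in the NTS, and Gphn passed in no pair. In tissue punches, fewer cells of a type and less RNA per cell cannot be told apart.

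**Figure D1:**
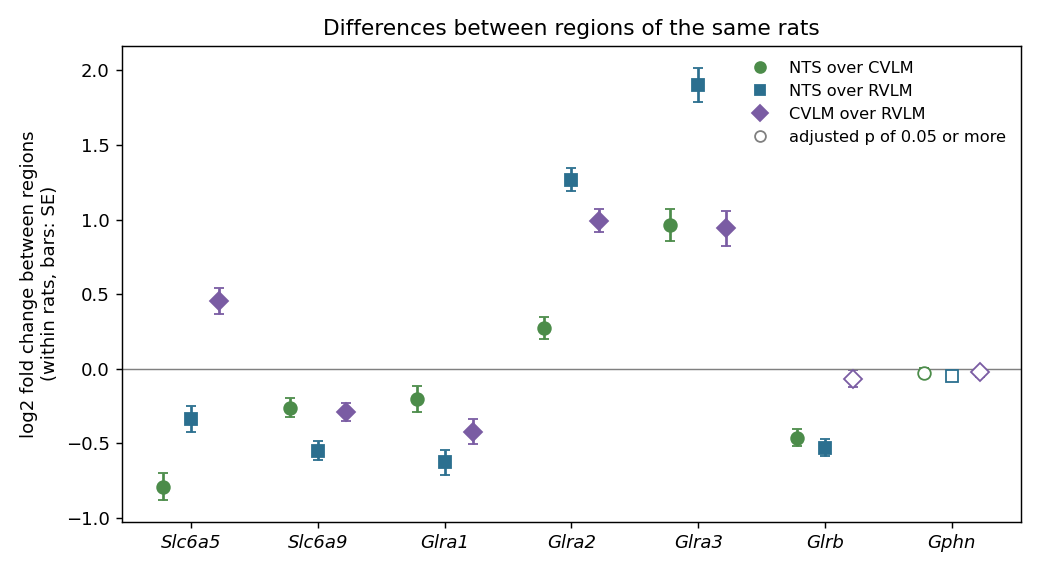
Log2 fold change between regions of the same rats (y axis) for each gene (x axis), for NTS over CVLM, NTS over RVLM and CVLM over RVLM. Bars are SE, and open symbols mark an adjusted p of 0.05 or more. Glra2 and Glra3 lie above 0 in every pair, Slc6a9 and Glra1 lie below 0 in every pair, and Gphn lies close to 0.

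Slc6a5, the marker of glycinergic neurons, averaged 95.6 ± 25.1 CPM (SD, n = 46) in the NTS, 165 ± 44.3 (CVLM) and 126 ± 58.7 (RVLM). Its CVLM level exceeded the NTS level in all but 3 of 46 rats, with a log2 difference (NTS minus CVLM) of -0.79 (SE 0.089, adjusted p = 1.99e-12). It was also lower in the NTS than in the RVLM (log2 difference -0.34, SE 0.089, adjusted p = 0.000604) and higher in the CVLM than in the RVLM (0.46, SE 0.089, adjusted p = 9.91e-06). The order of these regions was not that of every rat, since 15 rats had more Slc6a5 in the NTS than in the RVLM. Slc6a9 rose from 39.2 ± 11.4 CPM in the NTS to 45.6 ± 8.09 (CVLM) and 55.3 ± 13.1 (RVLM), and all 3 log2 differences passed: -0.26 for NTS minus CVLM (adjusted p = 0.000193), -0.55 for NTS minus RVLM (adjusted p = 1.45e-12) and -0.29 for CVLM minus RVLM (adjusted p = 5.33e-05). The transporters thus peaked in different regions, Slc6a5 in the CVLM and Slc6a9 in the RVLM.

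Among the alpha subunits, Glra2 averaged 16.1 ± 3.62 CPM in the NTS, 14.1 ± 4.49 (CVLM) and 7.14 ± 2.91 (RVLM). All 46 rats had more Glra2 in the NTS than in the RVLM (log2 difference 1.27, SE 0.077, adjusted p = 8.29e-26), and 44 of 46 had more in the CVLM than in the RVLM (0.99, SE 0.078, adjusted p = 2.32e-19). Between NTS and CVLM the log2 difference was 0.28 (SE 0.074, adjusted p = 0.000786). Glra3 fell more steeply along the same order, from 3.15 ± 1 CPM in the NTS to 1.57 ± 0.542 (CVLM) and 0.863 ± 0.438 (RVLM). Its NTS level, too, exceeded that of the RVLM in all 46 rats (log2 difference 1.91, SE 0.114, adjusted p = 1.97e-26), and NTS minus CVLM was 0.96 (SE 0.105, adjusted p = 2.96e-13). The RVLM side of Glra3 was near the floor, at 1 to 27 counts per library. Glra3 failed the filter in the RVLM and was in this fit because it passed in the NTS and CVLM. Glra1 ran the other way: 4.21 ± 1.66 CPM in the NTS, 4.77 ± 1.61 (CVLM) and 6.4 ± 2.3 (RVLM). Its differences from the RVLM passed (NTS minus RVLM -0.63, adjusted p = 4.52e-10; CVLM minus RVLM -0.42, adjusted p = 1.26e-05), and that between NTS and CVLM was -0.20 (SE 0.086, adjusted p = 0.0316), with 16 of 46 rats going the other way. This last call was lost in limma voom without WKY replicate 2 at 10 wk or WKY replicate 3 at 24 wk (log2 difference -0.27 to -0.16 over the rats left out), and in edgeR without the rats of the 2 libraries with conflicting age labels (-0.18, adjusted p = 0.0553) or without the rat block (-0.20, adjusted p = 0.0517).

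The beta subunit and its scaffold differed from each other in their pattern over the regions. Glrb averaged 414 ± 178 CPM in the NTS, 560 ± 235 (CVLM) and 589 ± 266 (RVLM), and was lower in the NTS than in either of the others in all but 4 of 46 rats each (log2 difference -0.46, adjusted p = 3.57e-11, and -0.53, adjusted p = 2.07e-13). Between CVLM and RVLM its log2 difference was -0.07 (SE 0.057, adjusted p = 0.351). Gphn was at 79.1 ± 10.8, 81 ± 12.3 and 82.1 ± 12.5 CPM, and its largest log2 difference, NTS minus RVLM, was -0.05 (SE 0.029, adjusted p = 0.106; it passed in limma voom without WKY replicate 3 at 8 wk).

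The strain comparison asks how SHRs differ from WKY rats. At single ages, 4 of 100 differences among these genes passed the test, 2 higher and 2 lower in SHRs. In the NTS it was 1 of 7 genes at 10 wk (Slc6a9) and none at another age, against, from 8 wk on, 5.79%, 4.44%, 3.1%, 1.73% and 2.46% of all genes tested at each age. In the CVLM, Glrb passed at 8 wk and Glra2 at 12 wk, against 7.64%, 3.18%, 2.62%, 2.27% and 7.13% of all genes. In the RVLM, Glrb passed at 8 wk alone, against 9.78%, 2.3%, 1.7%, 1.65% and 2.24%. The share of these genes that passed was near that of all genes. With the mean over the 5 ages, 4 of 20 differences passed, all higher in SHRs: Glra2 and Glra3 in the NTS (2 of 7, against 11.2% of all genes), Glra2 in the CVLM (1 of 7, against 12.3%) and Glra2 in the RVLM (1 of 6, against 10.8%). Over all ages, the median log2 difference of these genes was 0.25 in the NTS, 0.04 (CVLM) and 0.00 (RVLM), beside 0.01, 0.00 and 0.01 for all genes tested.

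**Figure D2:**
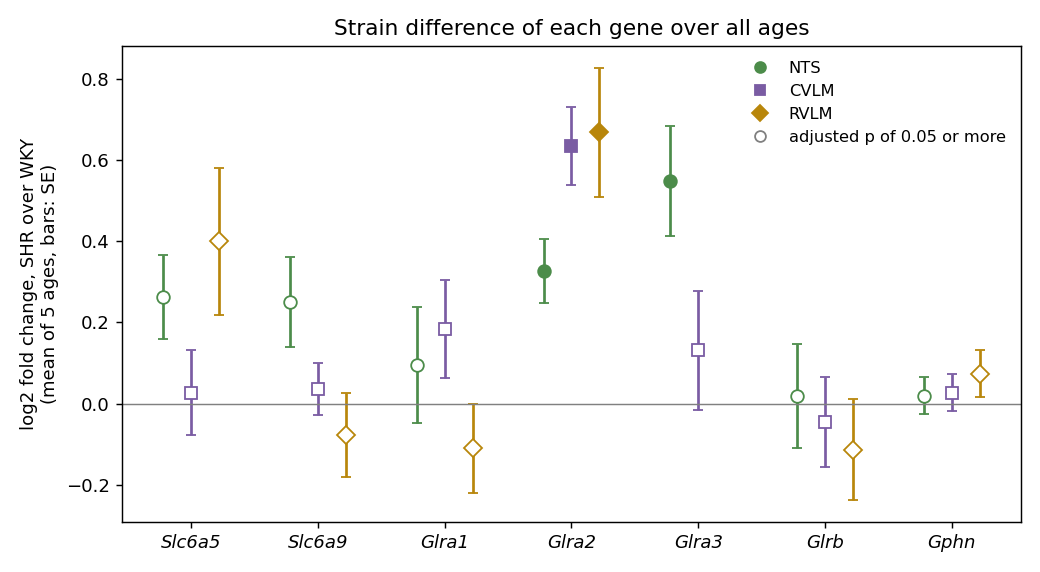
Log2 fold change of SHR over WKY (y axis) for each gene and region, averaged over the 5 ages, with SE as bars and open symbols where the adjusted p was 0.05 or more. Glra2 lies above 0 in all 3 regions at 0.33, 0.63 and 0.67, Glra3 in the NTS at 0.55, and Glrb and Gphn lie close to 0.

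Glra2, the alpha subunit typical of the fetal brain, was the gene of this family that differed between the strains in every region. The mean of the age means was 13.9 CPM in WKY rats and 17.5 in SHRs in the NTS, 10.7 and 16.2 (CVLM) and 5.23 and 8.34 (RVLM). The log2 fold changes over all ages were 0.33 (SE 0.079, adjusted p = 0.0029), 0.63 (SE 0.096, adjusted p = 2.1e-06) and 0.67 (SE 0.159, adjusted p = 0.00253). The SHR mean was above the WKY mean at 5 of 5 ages in each region. Of 28 SHR libraries per region, 25 in the NTS, 27 (CVLM) and 27 (RVLM) lay above the mean of WKY rats of their age. Over all ages, 1 of 5 oligodendrocyte markers passed in the NTS, 3 of 5 in the CVLM and 2 of 5 in the RVLM. Those that passed were lower in SHRs, and 11.2%, 12.3% and 10.8% of all genes passed in either direction. The log2 strain difference of their summed level was 0.1 in the NTS, higher in SHRs, -0.14 (CVLM) and -0.08 (RVLM). In the CVLM, that level ran from 37700 to 72100 CPM in WKY rats and from 37500 to 63500 in SHRs. Of the microglia markers, 1, 2 and 1 of 5 were lower in SHRs in NTS, CVLM and RVLM. In the RVLM, the strain differences in the summed levels were 0.29 for GABA, 0.26 for glutamate and 0.51 for noradrenergic and adrenergic neuron markers on the log2 scale, higher in SHRs, and none of these markers passed singly. The other regions did not share this: in NTS and CVLM the GABA markers were at -0.14 and -0.08, lower in SHRs. There the glutamate markers were at 0.05 and 0.07, and the noradrenergic and adrenergic markers at -0.22 and 0.08. As a description, correlations were taken over the 46 libraries of a region, with group means taken out and punch and scaling shared. Glra2 had a Pearson's r of 0.62, 0.72 and 0.81 with the GABA neuron markers in NTS, CVLM and RVLM. In the RVLM, r was 0.72 with the glutamate and 0.61 with the noradrenergic and adrenergic markers. With the motor neuron markers, r was 0.52 in the NTS and 0.49 in the CVLM but -0.62 in the RVLM. In NTS, CVLM and RVLM, r was -0.32, -0.19 and 0.41 with the oligodendrocyte markers. With those of endothelium, r was -0.55, -0.37 and -0.16. The part of these cell types in the Glra2 result was not tested. With only the libraries whose names end in 1, a comparison added after seeing the data, Glra2 still passed in all regions, at 0.30 (adjusted p = 0.0227), 0.71 (adjusted p = 0.000179) and 0.73 (adjusted p = 0.0152).

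The CVLM values show how Glra2 was spread. At 8 wk, WKY libraries were at 12.4, 10.4, 19.1, 13.2 and 14.3 CPM and SHR libraries at 17.9, 14.8, 15.5, 13.4 and 16.9, so the strains overlapped (log2 fold change 0.18). The overlap lay in the WKY libraries of number 2, at 13.2 to 19.1 CPM. The WKY libraries of number 1, at 10.4 and 12.4 CPM, lay below all SHR libraries, whose names end in 1. At 10 wk, WKY libraries were at 15.3, 14.8, 16.6 and 10.8 CPM and SHR libraries at 18.8, 18.9, 19.9, 22.8 and 25.9, with no overlap (0.57). At 12 wk, WKY libraries were at 5.41, 9.24 and 5.46 CPM and the 6 SHR libraries between 12.7 and 18.1, with a median of 14.2. Every SHR library lay above every WKY library at 12 wk, and this was the age at which Glra2 passed alone (log2 fold change 1.13, SE 0.232, adjusted p = 0.00158). At 16 wk the log2 fold change was 0.76 (adjusted p = 0.069), with WKY libraries at 8.12, 12.3 and 5.69 CPM and SHR libraries between 9.48 and 21.3, with a median of 14.8. At 24 wk it was 0.54, with WKY libraries at 10.9, 10.5 and 7.44 CPM and SHR libraries between 10.7 and 19, with a median of 13.4. One SHR library lay within the WKY range at each of these later ages.

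In the NTS, Glra2 means from the youngest to the oldest age were 13.4, 17.4, 13.7, 13.3 and 11.9 CPM in WKY rats, and 15.6, 21.2, 16.7, 17 and 16.8 in SHRs. The strains were apart at 24 wk, with WKY libraries at 11.7, 11.5 and 12.6 CPM and SHR libraries between 13.6 and 25.5, with a median of 14.7; the highest of them is a number 2 library. In the RVLM, its means were 5.64, 5.8, 4.08, 6.15 and 4.49 CPM in WKY rats, and 6.75, 10.5, 7.51, 8.85 and 8.07 in SHRs. The RVLM strains were apart at 12 wk, with WKY libraries at 2.94, 4.13 and 5.16 CPM and SHR libraries between 5.68 and 9.96, with a median of 7.38. No single age passed in either region. At 8 wk in the RVLM, WKY libraries of number 1 were at 3.54 and 4.41 CPM and those of number 2 at 5.33 to 8.65. The SHR libraries there, all of number 1, were at 6.02 to 7.61 CPM. In the NTS at 8 wk, WKY libraries of both numbers overlapped (10.9 and 14.2 CPM against 12.5 to 15.8).

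**Figure D3:**
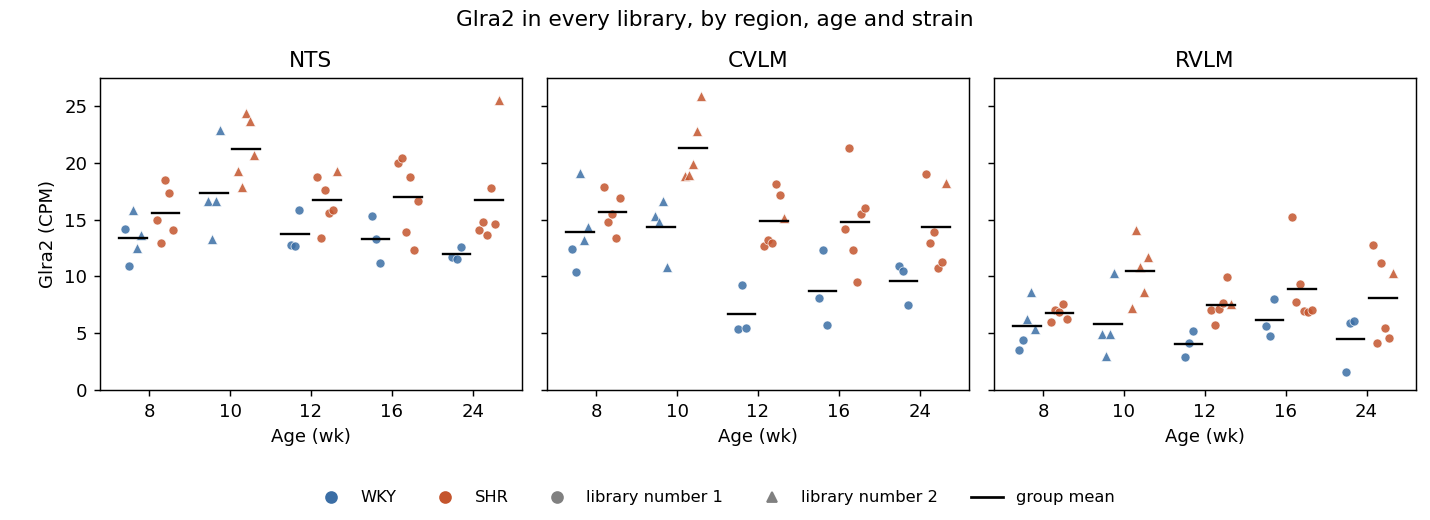
Glra2 CPM (y axis) in every library by age (x axis, wk) and region, WKY in blue and SHR in red, with black bars for group means, circles for libraries whose names end in 1 and triangles for 2. The CVLM groups do not overlap at 10 or 12 wk, the RVLM groups at 12 wk, or the NTS groups at 24 wk.

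Glra3, a minor alpha subunit, was higher in SHRs over all ages in the NTS (log2 fold change 0.55, SE 0.135, adjusted p = 0.00353), at a mean of 2.46 CPM in WKY rats and 3.6 in SHRs. It was above the WKY mean of the age in 23 of 28 SHR libraries. Choroid plexus markers, of a tissue that borders the NTS, also differed there: 3 of 4 were lower in SHRs, and their summed level ran from 2.81 to 4370 CPM in WKY libraries and from 1.86 to 9.5 in SHR libraries. Of the ependymal markers counted, 2 of 3 were lower in SHRs. Without the 5 WKY libraries above 100 CPM, a comparison added after seeing the data that leaves 1 WKY library at 12 wk, Glra3 was at 0.50 (SE 0.161, adjusted p = 0.0469) and Glra2 in the NTS at 0.35 (SE 0.091, adjusted p = 0.00846). At 12 wk, WKY libraries were at 2.14, 2.31 and 2.22 CPM and SHR libraries between 3.31 and 4.81, with a median of 3.79, with no overlap. In the CVLM the log2 fold change over all ages was 0.13 (SE 0.147, adjusted p = 0.688), with 15 of 28 SHR libraries above the WKY mean. In the RVLM, Glra3 fell under the filter on low counts, with means of 0.64 CPM in WKY rats and 1.03 in SHRs. There it came to 0.72 with no filter (SE 0.24, adjusted p = 0.0542) and to 0.74 under a filter based on CPM (adjusted p = 0.0346), and SHR libraries at 10 wk (1.11, 1.49, 1.35, 0.95 and 0.899 CPM) lay above all WKY libraries (0.4, 0.723, 0.272 and 0.856).

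Promoter windows, the 250 bases before the annotated start, were found in RefSeq (assembly GRCr8, not the build the reads were counted on) for 6 of 7 genes. The letters GGGCGG, the core of the GC box, occurred on either strand in 30.5% of 33465 such windows. The stretches below are shown because Glra2 and Glra3 were the genes higher in SHRs over all ages, and the capitals mark the GC box, read on the other strand. They lie 71 bases before the start of Glra2 and 12 bases before that of Glra3, at chrX:32652098-32652127 (plus strand) and chr16:39857007-39857036 (minus strand).
Glra2: tctctccgacccCCGCCCcaagctactgaa
Glra3: agtcctctggccCCGCCCccgcctgtcttt
Slc6a9, Glrb and Gphn also held the letters in their windows and Slc6a5 did not, so that they did not set apart the genes that differed between strains.

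Of the transporters, Slc6a9 passed the strain test at 1 age in 1 region, the NTS at 10 wk (log2 fold change 0.91, SE 0.244, adjusted p = 0.0203) and Slc6a5 was there at the threshold (0.75, SE 0.229, adjusted p = 0.0502). Slc6a9 was at 31.8, 32.8, 25 and 25.1 CPM in WKY rats and at 26.1, 64.3, 80, 25.8 and 63.5 in SHRs. Its rise rested on 3 SHR libraries, replicates 2, 3 and 5, while replicates 1 and 4 lay within the WKY range. Leaving out any of these 3, or WKY replicate 3 or 4, ended the call, with a log2 fold change of 0.69 to 1.08 over all libraries left out in turn and an adjusted p of up to 0.137. With age by replicate number as a block it was 0.65 (adjusted p = 0.231), with 10 wk fitted alone 0.89 (adjusted p = 0.187), and without the 5 WKY libraries rich in choroid plexus markers 0.85 (adjusted p = 0.0676). Slc6a5 was at 77.3, 76.6, 64.6 and 57.2 CPM in WKY rats and at 79.4, 146, 149, 81.2 and 103 in SHRs. Its groups did not overlap, and the same SHR replicates 2, 3 and 5 were the highest for both genes. Slc6a5 passed in 3 of 8 alternative fits (log2 fold change 0.72 to 0.75, adjusted p = 0.0342 to 0.0895), DESeq2 among them (0.72, adjusted p = 0.035). It did not pass with the replicate block (adjusted p = 0.0742) or with 10 wk fitted alone (adjusted p = 0.088). Without the 5 WKY libraries rich in choroid plexus markers its log2 fold change was 0.67. Slc6a5 also passed when any of 10 of the 46 libraries was left out, among them SHR replicates 1 and 4 of this age. Over all libraries left out, the log2 fold change was 0.62 to 0.85 and the adjusted p up to 0.193. Whether the strain effect in the NTS at 10 wk differed from that at the other 4 ages was tested directly: 0 of 7 genes passed, against 0.0508% of all genes, with Slc6a9 at a difference of 0.82 (adjusted p = 0.286) and Slc6a5 at 0.61 (adjusted p = 0.421). Both had an unadjusted p under 0.05, and DESeq2 called 0 as well.

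**Figure D4:**
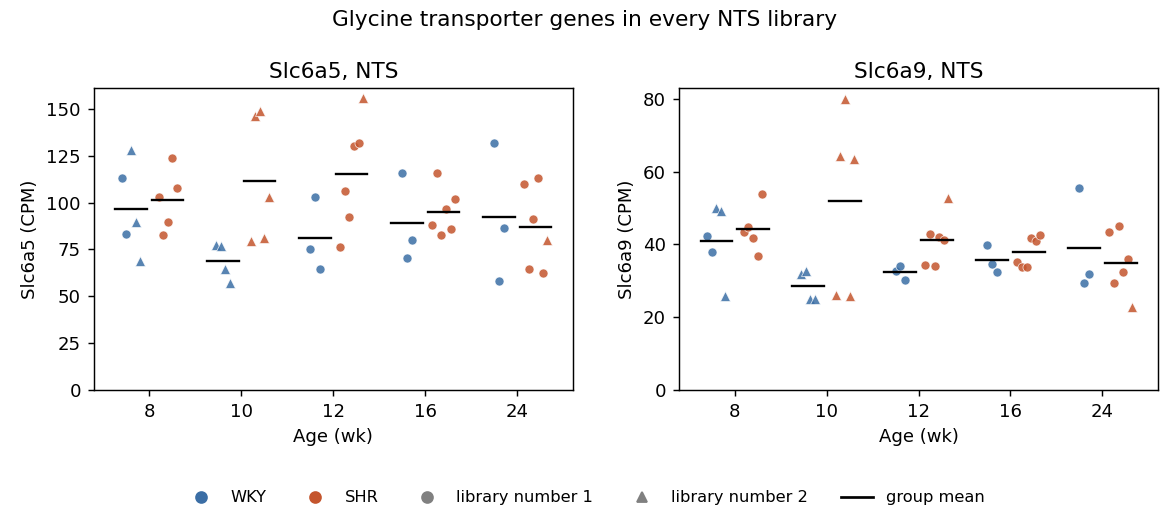
CPM (y axis) of Slc6a5 and Slc6a9 in every NTS library by age (x axis, wk), WKY in blue and SHR in red, with black bars for group means, circles for libraries whose names end in 1 and triangles for 2. At 10 wk, 3 of 5 SHR libraries of Slc6a9 lie at 63.5 to 80 CPM, above the WKY range of 25 to 32.8, and the other 2 lie inside it.

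Over all ages, Slc6a5 had a log2 fold change of 0.26 in the NTS (SE 0.104, adjusted p = 0.106, and 0.0289 without WKY replicate 1 at 24 wk), 0.03 in the CVLM (adjusted p = 0.936) and 0.40 in the RVLM (SE 0.181, adjusted p = 0.182). The RVLM held its widest spread, from 34.5 to 264 CPM, with means of 72.4 in WKY rats and 131 in SHRs at 8 wk, and 170 and 165 at 16 wk. At 8 wk its log2 fold change in the RVLM was 0.85 (SE 0.372, adjusted p = 0.132), and 4 of 5 SHR libraries lay above every WKY library. With group means taken out, Slc6a5 in the RVLM had a Pearson's r of 0.89 with the GABA and 0.76 with the glutamate neuron markers. With the general neuron, motor neuron and choroid plexus markers, r was -0.39, -0.56 and -0.64. The summed level of the GABA neuron markers Gad1, Gad2 and Slc32a1 in the RVLM ran from 80.3 to 377 CPM in WKY rats (median 170) and from 105 to 441 in SHRs (median 203). None of these 3 markers passed the strain test in the RVLM or CVLM and 1 passed in the NTS, lower in SHRs. Their part in the results was not tested. Slc6a9 had log2 fold changes over all ages of 0.25 in the NTS (adjusted p = 0.165), 0.04 in the CVLM and -0.08 in the RVLM.

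Glrb, the beta subunit, was lower in SHRs at 8 wk in the CVLM (log2 fold change -0.85, SE 0.229, adjusted p = 0.0159) and RVLM (-0.93, SE 0.259, adjusted p = 0.0197), and at -0.70 (adjusted p = 0.0981) in the NTS. In the CVLM, WKY libraries were at 392, 424, 796, 971 and 850 CPM and SHR libraries at 294, 389, 319, 381 and 524. In the RVLM, WKY libraries were at 493, 584, 517, 1100 and 1010 CPM and SHR libraries at 484, 364, 263, 433 and 414. The high WKY libraries were replicates 3, 4 and 5 in the CVLM and 4 and 5 in the RVLM, all with names ending in 2, and all 5 SHR libraries of this age end in 1. The CVLM call was lost without any of WKY replicates 3, 4 and 5 or SHR replicate 1 (adjusted p up to 0.0934), the RVLM call without WKY replicate 4 or 5 or SHR replicate 3 (up to 0.0811), and both with 8 wk fitted alone (-0.84 and -0.92, adjusted p = 0.184 and 0.0885).

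Within strain and age, Glrb was 0.97 higher on the log2 scale in number 2 than in number 1 libraries in the CVLM (SE 0.139, adjusted p = 7.48e-06), 1.00 in the NTS (SE 0.189, adjusted p = 0.000194) and 0.83 in the RVLM (SE 0.19, adjusted p = 0.00247). Its medians in number 1 and number 2 libraries were 316 and 615 CPM in the NTS, 422 and 857 (CVLM) and 432 and 958 (RVLM). SHR replicate 6 at 12 wk, a number 2 library, stood at 710 CPM in the CVLM where the other 5 libraries lay between 400 and 462. With the number as a term, the difference between strains at 8 wk was -0.18 in the CVLM (adjusted p = 0.925) and -0.39 in the RVLM (adjusted p = 0.415). In number 1 libraries alone it was -0.08 and -0.47 (adjusted p = 1 and 0.707). At 8 wk, number and strain can be told apart only through the 2 WKY libraries of number 1 in each region.

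**Figure D5:**
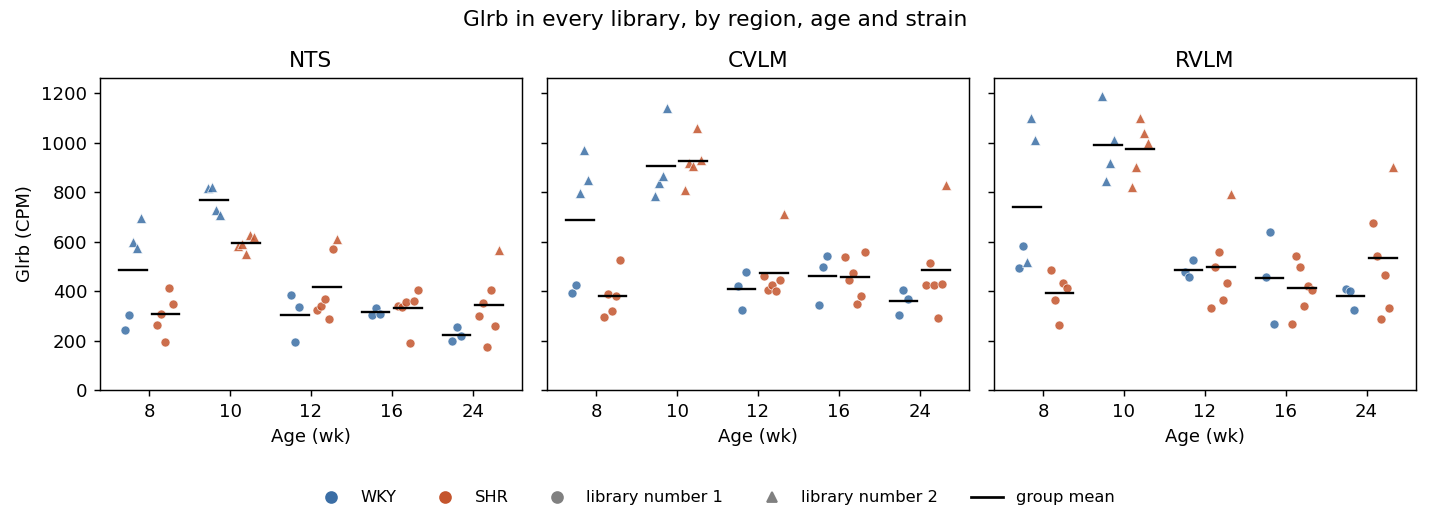
Glrb CPM (y axis) in every library by age (x axis, wk) and region, WKY in blue and SHR in red, with black bars for group means, circles for libraries whose names end in 1 and triangles for 2. Triangles lie above most circles of their region, at medians of 615, 857 and 958 CPM against 316, 422 and 432.

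The number moved with other genes of the family too. It passed as a term for 4 of 7 genes in the NTS, 4 of 7 (CVLM) and 2 of 6 (RVLM), against 25.6%, 21.6% and 16.4% of all genes. Gphn was higher in number 2 libraries in all regions (0.25, 0.28 and 0.29 on the log2 scale, adjusted p = 0.0121, 0.00533 and 0.0323), and Glra1 was lower in the NTS (-0.70, adjusted p = 0.0368) and CVLM (-0.69, adjusted p = 0.0206). Glra2 was higher in number 2 libraries in the NTS (0.39, adjusted p = 0.0243), and Slc6a9 was lower in the CVLM (-0.45, adjusted p = 0.00253). For Slc6a5 and Glra3 the term passed in no region. With this term in the fit, Glra2 stood at 0.34, 0.65 and 0.70 between strains over all ages (adjusted p = 0.000534, 6.89e-07 and 0.00142) and Glra3 in the NTS at 0.57 (adjusted p = 0.00162).

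For Glrb, Gphn and Glra1 no difference between strains passed over all ages. The log2 fold changes in NTS, CVLM and RVLM were 0.02, -0.05 and -0.11 for Glrb, 0.02, 0.03 and 0.07 for Gphn, and 0.10, 0.18 and -0.11 for Glra1. For Glrb, the mean over ages joined values of opposite sign. At 24 wk, its log2 fold changes were 0.60 (SE 0.302, adjusted p = 0.392), 0.41 (SE 0.259, adjusted p = 0.361) and 0.50 (SE 0.293, adjusted p = 0.403), against the negative values at 8 wk given above, and SHR replicate 6, a number 2 library, was the highest in each region (565, 830 and 901 CPM). In the NTS at 10 wk, where every library is a number 2 library, Glrb was at 709 to 822 CPM in WKY rats and 551 to 628 in SHRs without overlap, yet with a log2 fold change of -0.33 (adjusted p = 0.602).

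Between 8 and 24 wk within a strain, 1 of 40 differences passed: Glrb in the CVLM of WKY rats (log2 difference -0.89, SE 0.271, adjusted p = 0.0263), at 305, 403 and 368 CPM at 24 wk. Without WKY replicates 4 or 5 at 8 wk, or 1 or 3 at 24 wk, it no longer passed (-1.04 to -0.72), and it was -0.22 with the number as a term (adjusted p = 0.6), -0.36 with age by replicate number as a block (adjusted p = 0.835) and -0.80 without the libraries with conflicting labels (adjusted p = 0.062). The share of all genes that passed was 0.464%, 13.7% and 0.179% for WKY rats in the NTS, CVLM and RVLM and 0.232%, 0.649% and 0.358% for SHRs. For SHRs the Glrb differences were 0.14 to 0.45 and did not pass.

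The strain effect differed between ages for 0 of 20 tests by edgeR's quasi-likelihood test and for 0 by DESeq2, against 0.0145%, 0.0224% and 0.00746% of all genes in the NTS, CVLM and RVLM. The unadjusted p was under 0.05 in 5 of them: Glrb in all regions, Slc6a9 in the NTS and Glra2 in the CVLM (unadjusted p = 0.0457, adjusted p = 0.407). It differed between regions for 0 of 21 tests by edgeR and by limma voom, against 0.449%, 1.82% and 0.32% of all genes for NTS against CVLM, NTS against RVLM and CVLM against RVLM, with 4 at an unadjusted p under 0.05. For Glra2 the strain effect in the NTS minus that in the CVLM was -0.31 (SE 0.148, adjusted p = 0.636), and NTS minus RVLM was -0.34 (SE 0.154, adjusted p = 0.335). A greater strain difference of Glra2 in the ventrolateral regions than in the NTS was therefore not shown, nor was it shown that Glra3 differed more in the NTS than in the CVLM (difference of strain effects 0.39, adjusted p = 0.712).

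Of 16 further genes of the pathway, which load, carry, make and break down glycine or hold its receptor in place, 6 of 46 strain differences over all ages passed, all lower in SHRs, close to the share of all genes (11.2%, 12.3% and 10.8% in NTS, CVLM and RVLM). Shmt1, which interconverts serine and glycine in the cytosol, was lower in all regions (log2 fold change -0.52 in the NTS, adjusted p = 0.0234; -0.78 in the CVLM, adjusted p = 9.5e-06; -0.72 in the RVLM, adjusted p = 0.000103). Its mitochondrial counterpart Shmt2 was lower in the RVLM (-0.22, adjusted p = 0.00738). At single ages 2 of 230 passed, both Shmt1 in the CVLM (8 wk, -1.28, adjusted p = 0.00159; 10 wk, -0.96, adjusted p = 0.0313), where 7.64% and 3.18% of all genes passed at these ages. Between regions, 31 of 48 differences passed, again near the share of all genes (65.9%, 72.7% and 54%). Glra4, a further alpha subunit gene, was at 0.9 CPM in the NTS and at 0.119 and 0.082 in the CVLM and RVLM. Slc7a10, an exchanger of glycine and other small amino acids, was highest in the RVLM (82.8, 106 and 157 CPM in NTS, CVLM and RVLM), and the vesicular carrier Slc32a1 in the CVLM (2.96, 3.88 and 2.92 CPM). Of 92 differences between 24 and 8 wk, 1 passed, in the CVLM of WKY rats, where 13.7% of all genes passed. It was that of the adhesion gene Nlgn2 (1.56, SE 0.502, adjusted p = 0.0337). Levels in the CVLM were low, at a mean of 2.67 CPM for Shmt1 and 1.44 for Nlgn2. The WKY libraries at 8 wk are of both numbers. Those of SHRs at 8 wk and of WKY rats at 24 wk are all of number 1. The part of the library number in the Nlgn2 call and the Shmt1 call at 8 wk was not tested.

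As a description of likeness, the genes whose mean log2 CPM ran most closely with each gene over the 30 groups of region, strain and age were taken by Pearson's r; these groups share rats across regions and the number that ends the library name. For Slc6a5 they were Apbb2 (r = 0.895), Trim2 (0.865) and Lamp5 (0.859), and for Slc6a9 Kcnab2 (0.88) and Fam57b (0.869). For Glra1 they were LOC689574 (0.921), Arpc4 (0.909) and Ckb (0.906), for Glra2 Chst1 (0.947), Lrfn5 (0.928) and Prps1 (0.918), and for Glra3 AABR07040095.1 (0.947), Trpc7 (0.944) and Flrt3 (0.942). For Glrb they were Ube2g1 (0.973), Nipa1 (0.954) and Cab39 (0.951), and for Gphn Cul2 (0.941), Eif1ax (0.939) and Gk (0.929).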

How the data were processed

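RNA from punches of 46 rats was sequenced. The authors mapped reads to rn6 with STAR inside RSEM and deposited expected counts per gene, not normalized, in 1 table per region; each column was used and 0 were left out. The methods name a batch adjustment by ComBat_seq without stating if these tables had it; 4.88% to 5.02% of values were not whole. Counts were rounded. As in the study's methods, genes with a maximum rlog value (DESeq2 1.42.0) under 3.5 were left out, which kept 13793 genes in the NTS, 13408 (CVLM) and 13411 (RVLM). Strains were compared with edgeR 4.0.16 (R 4.3.3; TMM scaling, robust quasi-likelihood test) in 1 fit of 10 groups per region, with Benjamini-Hochberg adjustment over all genes and a threshold of 0.05. Regions were compared in 1 fit over all libraries with the rat as a block, over 14043 genes. CPM were scaled by TMM over all libraries. Replicates are rats, and the closest of 270 pairs of libraries within a group differed by a chi-square of 5.07 per gene, so none was a copy. In 2 CVLM libraries, replicate 5 at 8 wk of each strain, the age labels conflict, and the title was followed. Alternatives were DESeq2, RLE scaling, other filters, a replicate block, each age alone, the number ending the library name, limma 3.58.1 (voom), a stricter call, NTS libraries rich in choroid plexus markers left out, and each library or rat left out. The edgeR strain fit, for the NTS, and the fit over all regions were tested on simulated data. The 7 genes and the lists were chosen with earlier results of these data known, and the study names Slc6a5, Slc6a9 and Glra2 from these samples, so no count here is independent evidence. Named are the 7 genes, pathway genes that passed, and up to 3 genes most correlated with each; some genes under this rule are not reported here. Promoter sequences came from RefSeq.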

Additional observations from a re-analysis of the deposited data

Results flagged for a closer look

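Within groups of 4 to 6 libraries, 7 of 147 had 1 library far from the rest by Dixon's ratio, where chance alone flags about 1 in 20, or 7.35. In the RVLM, SHR replicate 2 at 10 wk stood at 98 CPM of Slc6a9 (others 38.9 to 44.8), SHR replicate 1 at 8 wk at 5.39 CPM of Glra1 (others 8.28 to 9.15) and SHR replicate 1 at 16 wk at 15.2 CPM of Glra2 (others 6.89 to 9.3). In the NTS, SHR replicate 6 at 24 wk stood at 25.5 CPM of Glra2 (others 13.6 to 17.8), WKY replicate 4 at 10 wk at 2.92 CPM of Glra3 (others 2.55 to 2.61) and SHR replicate 4 at 16 wk at 191 CPM of Glrb (others 336 to 405). In the CVLM, SHR replicate 6 at 12 wk stood at 710 CPM of Glrb (others 400 to 462). The names of 2 of these libraries end in 2 outside 10 wk, those of SHR replicate 6 at 12 and at 24 wk.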

How the results depend on the processing

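The 4 strain differences called at single ages came to 2 with each age fitted alone, 1 under the stricter call (adjusted p of at most 0.01 and a log2 fold change of at least 1 in size) and 1 of 80 in number 1 libraries only, an alternative chosen after seeing the data; DESeq2 gave 6. Leaving out 1 library at a time gave 2 to 5. The 4 calls over all ages came to 0 under the stricter call, and leaving out 1 library at a time gave 4 to 5. The 1 call between 24 and 8 wk came to 3 with DESeq2 and to 0 with the replicate block, the library number as a term, number 2 libraries left out, number 1 libraries only, the 2 libraries with conflicting labels left out or the stricter call, and leaving out 1 library at a time gave 0 to 4. The 17 region calls came to 2 under the stricter call and to 16 to 18 when each rat was left out in turn, in limma voom with the rat as a random block, also chosen after seeing the data. The tests of strain effects differing between ages, at 10 wk and between regions gave 0 in each alternative run. With age by replicate number as a replicate block, single ages gave 4 calls and all ages 4, and Slc6a9 in the NTS at 10 wk fell to 0.65 (adjusted p = 0.231). Of 54 pairs of rats with the same number, age and region, 32 correlated over 0.1 (median 0.13, -0.31 to 0.52) and 22 correlated best with their own number. Every pair was over 0.1 in 4 of 15 sets of 1 region and age and not in the others, among them the NTS at 10 wk, and no source says that a number marks a shared origin. Without the 5 NTS libraries over 100 CPM of choroid plexus markers, single ages gave 3 calls and all ages 4. Single values were also followed under the other alternatives. These counts include values that were not called, and 46 refits of each value that left out 1 rat, so most are such refits. Of these, 3880 kept their side of the threshold and direction, 35 lost a call, 15 gained one and 62 that had not been called changed sign. None that was called changed sign. Depth limits Glra3 in the RVLM most.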

Other observations

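SHR replicate 2 at 10 wk was high for both transporters in the NTS and the RVLM. Slc6a9 was at 64.3 CPM in its NTS library and at 98 in its RVLM library, but at 33.6 in its CVLM library, the lowest of its group. Slc6a5 was at 146 CPM in its NTS library and at 252 in its RVLM library, the highest of that group. In the RVLM of WKY rats at 10 wk, Slc6a9 reached 93.6 CPM in 1 library, which had the lowest Slc6a5 of its group, at 60.6.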
